A study of Mus musculus with 6 samples.

Results

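Aminoacyl-tRNA synthetases are the enzymes that join each amino acid to its tRNA, and their transcripts are described here in 6 mouse libraries. The members are the protein-coding rows whose symbol is a single capital letter followed by ars, with or without a closing 1 or 2, plus Eprs, Farsa and Farsb. Of 18908 gene rows, 14222 of them protein coding, 37 were members. Names ending in ars2 form the mitochondrial set of 17 genes and the others form the cytosolic set of 20. The series concerns VprBP (Dcaf1), a substrate receptor of a ubiquitin ligase, in osteoclast differentiation. It compares 3 libraries from cells given a control shRNA, with the genotype label WT, with 3 libraries from cells given an shRNA against VprBP, with the genotype label VprBP1 Knockdown. An shRNA is a hairpin-forming RNA that is cut into a small interfering RNA and silences its target transcript. All 6 libraries are labelled bone marrow-derived macrophages (BMDM). The labels give no age, mouse strain or shRNA sequence, and leave unsaid whether each library had its own animal or culture. The p-values are thus set by library-to-library spread alone, which may be technical.

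Each synthetase recognises its amino acid and the tRNAs that carry it, uses ATP to activate the amino acid and transfers it to the tRNA end, where the ribosome can use it. The enzymes fall into class I and class II, which have unrelated catalytic folds. Most cells keep separate nuclear genes for the cytosolic and the mitochondrial enzyme, but Gars and Kars each supply both compartments. In the cytosol, Eprs, Iars, Lars, Mars, Qars, Rars, Kars and Dars are held in a multi-synthetase complex by the scaffold proteins Aimp1, Aimp2 and Eef1e1. Uncharged tRNA activates the kinase Gcn2 (Eif2ak4), which through phosphorylation of eIF2 raises translation of the transcription factor Atf4. Genes for several cytosolic synthetases are known targets of Atf4.

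The targeted transcript and the labelled cell type were checked first. Dcaf1 stood at 42.2, 43.5 and 40.7 CPM (the gene's counts scaled to a common library size) under the control label against 35.96, 34.6 and 36.8 CPM under the VprBP label. On average this was 42.1 ± 1.42 against 35.8 ± 1.11 CPM (SD, n = 3 each), a log2 difference of -0.24 (edgeR adjusted p = 0.00625). The exact two-sided permutation test of 3 against 3 log2 values gave p = 0.1, the smallest it allows. Scaling on library size alone left -0.12, which was not called (edgeR adjusted p = 0.137). Of 14 macrophage markers, 10 have no row in the table used here, Csf1r, Adgre1, Itgam and Spi1 among them. The 4 with a row summed to 37.1 to 40.2 CPM under the control label against 16.5 to 18.2 CPM under the VprBP label, but went different ways. Cd68 fell from 31.6 ± 1.20 to 1.01 ± 0.27 CPM, Mertk rose from 5.35 ± 0.739 to 13.3 ± 0.696 CPM, Lyz2 rose from 1.05 ± 0.212 to 2.51 ± 0.304 CPM and Cd14 was not called. The sum of 8 pigment cell markers was 21075 to 21454 and 19654 to 20163 CPM, with 5 of them called higher (Tyr 3.79-fold, Sox10 3.51-fold, Mitf 3.44-fold) and 3 lower (Slc45a2 3.81-fold, Pmel 2.78-fold). Of 7 stromal markers, the 6 with a row summed to 47.3 to 50.3 and 366 to 419 CPM. Of the 5 tested, 4 were called higher, with Col1a1 rising from 14.9 ± 1.07 to 302 ± 28.2 CPM. Dcn was called lower, at 2.70 ± 0.297 and 1.26 ± 0.365 CPM. Of 6 osteoclast markers, the 2 with a row summed to 0.657 to 1.55 and 0.108 to 0.834 CPM. Genes on the mitochondrial genome took 8.65% to 9.48% of the counts in the control-labelled and 4.89% to 5.56% in the VprBP-labelled libraries. These sums and shares, other than the overlapping osteoclast sums, differed between the labels without overlap, and their part in the results below was not tested. Pigment cell transcripts far above the macrophage ones go against the labelled cell type in all 6 libraries, so the groups are called by their labels throughout. In such bulk samples, fewer cells of a type and less RNA per cell cannot be told apart.

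All 37 synthetase genes passed the filter on low counts and were tested, and more of them were lower than higher in the VprBP-labelled libraries. A gene was called at an edgeR adjusted p below 0.05 over all tested genes. Of the 37, 22 fell, 6 rose and 9 were not called. The 28 called make 75.7% of the members, where 75.0% of the 14641 tested genes were called, so the share called does not set the family apart. By direction, 59.5% of the members were called lower and 16.2% higher, beside 37.0% and 37.9% of all tested genes. Groups did not overlap for 28 members (75.7%), beside 77.2% of all tested genes. Most differences were small. Only 4 members (10.8%) were called with a log2 difference of at least 1 in size, beside 33.6% of all tested genes, and Farsa, Rars and Lars2 were the 3 of them that fell. The median log2 difference was -0.28 over the 37 and -0.012 over all tested genes. Together the family took 0.452% to 0.463% of all counts in the control-labelled and 0.379% to 0.387% in the VprBP-labelled libraries.

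**Figure D1:**
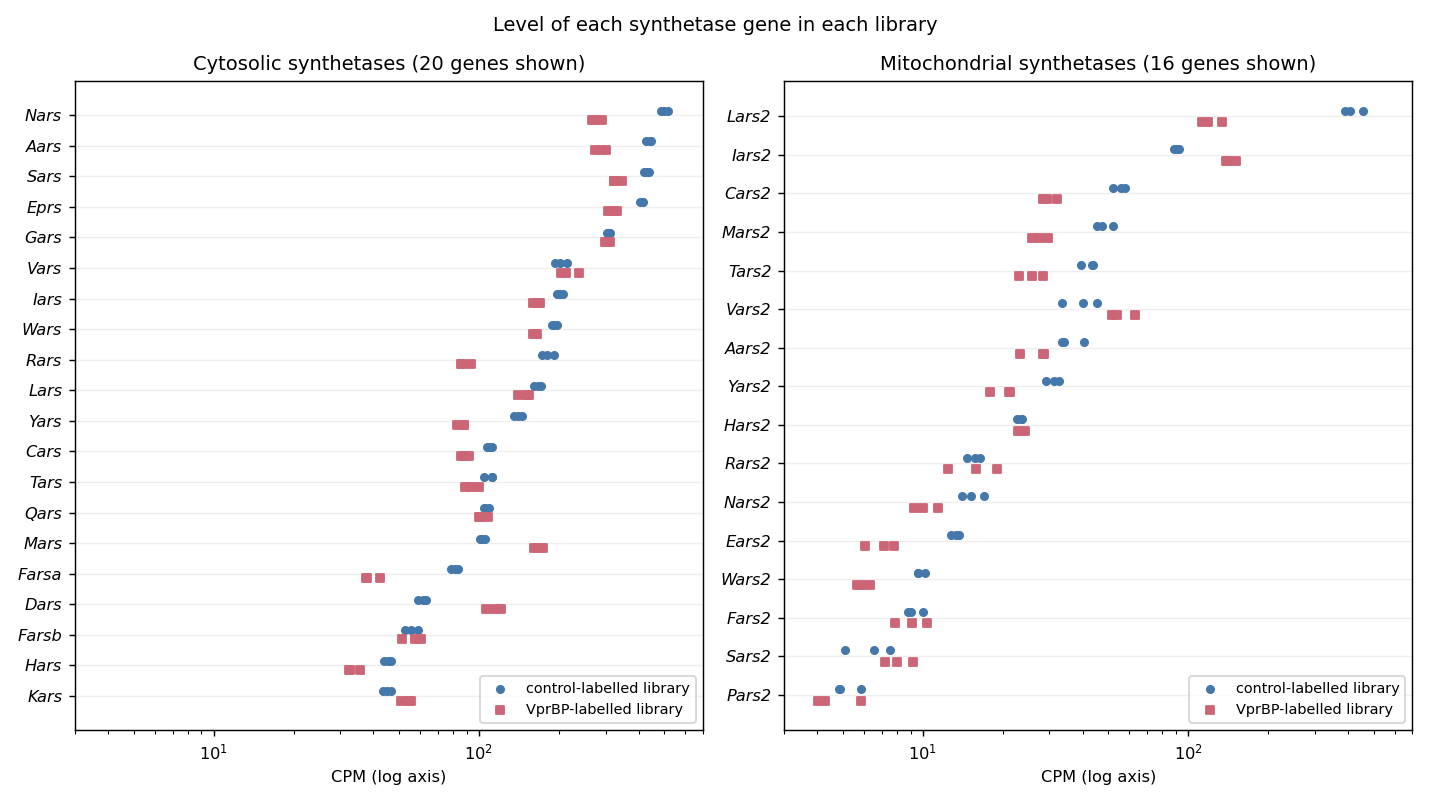
Level of the 20 cytosolic and 16 of the 17 mitochondrial synthetase genes in each library, as CPM on a log axis, with circles for the 3 control-labelled and squares for the 3 VprBP-labelled libraries. Genes are ordered by their control-labelled mean. The squares lie to the left of the circles without overlap for the 22 genes that fell and to the right for those that rose.

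Most cytosolic genes were lower, few of them strongly. Of 20, 13 fell, 3 rose and 4 were not called, where 37.0% of all tested genes were called lower and 37.9% higher. The median log2 difference of the 20 was -0.26. The summed level of the 20 genes was 3898, 3875 and 3882 CPM in control-labelled libraries 1, 2 and 3 and 3147, 3090 and 3181 CPM in the VprBP-labelled ones. Every VprBP-labelled sum lay below every control-labelled one, with means of 3885 ± 11.8 and 3139 ± 45.8 CPM (SD, n = 3 each).

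The largest fall among them was that of Farsa, the catalytic subunit of phenylalanyl-tRNA synthetase (ENSMUSG00000003808.18; GRCm38 chromosome 8, 84856989 to 84869257, plus strand). Its level was 80.9, 78.5 and 83.2 CPM under the control label against 42.2, 37.6 and 37.9 CPM under the VprBP label. All control-labelled values were above all VprBP-labelled ones, a log2 difference of -1.04 (SE 0.07, edgeR adjusted p = 8.41e-11). Farsb, the other subunit of the same heterotetramer (chromosome 1, 78417975 to 78488897, minus strand), stood at 55.5, 59.1 and 52.8 CPM against 51.4, 57.6 and 60.5 CPM. These Farsb values overlapped, and its log2 difference of 0.019 (SE 0.07) was not called (edgeR adjusted p = 0.821). The log2 ratio of Farsa to Farsb CPM was 0.54 ± 0.12 in the control-labelled and -0.52 ± 0.21 in the VprBP-labelled libraries (SD, n = 3 each). It was positive in 3 of 3 control-labelled and negative in 3 of 3 VprBP-labelled libraries, and the exact two-sided permutation test of that ratio gave p = 0.1, the smallest it allows.

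Rars, the arginine enzyme (ENSMUSG00000018848.4; chromosome 11, 35808381 to 35834506, minus strand), fell to a similar extent. Its level was 191, 181 and 172 CPM under the control label against 86.4, 93.2 and 85.3 CPM under the VprBP label, a log2 difference of -1.04 (SE 0.06, edgeR adjusted p = 7.00e-12). Nars, the asparagine enzyme and the cytosolic member with the highest CPM per kilobase of exon in the control-labelled libraries, stood there at 514, 487 and 498 CPM. Under the VprBP label it was at 276, 267 and 291 CPM, a fall of 1.80-fold (edgeR adjusted p = 5.65e-12). Yars, for tyrosine, fell 1.62-fold from 140 ± 4.52 to 86.2 ± 2.87 CPM, and Aars, for alanine, 1.52-fold from 437 ± 10.2 to 287 ± 12.8 CPM. None of these 4 genes had overlapping groups.

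The other 8 cytosolic genes that fell did so by 1.35-fold or less. Hars, for histidine, was 1.35-fold lower, Sars, for serine, 1.30-fold, and Eprs, the fused enzyme for glutamate and proline, 1.28-fold. Cars, for cysteine, was 1.24-fold lower, Iars, for isoleucine, 1.22-fold and Wars, for tryptophan, 1.18-fold. The smallest called falls were those of Tars, for threonine (109 ± 4.11 to 93.8 ± 5.80 CPM), and Lars, for leucine (166 ± 5.58 to 148 ± 7.42 CPM). Both lost their call with scaling by library size only, at log2 differences of -0.10 and -0.050 (edgeR adjusted p = 0.11 and 0.384). That scaling moved the median of all tested genes from -0.012 to 0.10 on the log2 scale.

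Dars, Mars and Kars rose. All 3 are among the 8 genes of the multi-synthetase complex, and 37.9% of all tested genes were called higher. Dars, for aspartate (ENSMUSG00000026356.15; chromosome 1, 128363707 to 128417368, minus strand), was at 63.0, 61.3 and 59.0 CPM under the control label against 106, 115 and 121 CPM under the VprBP label. This was a 1.86-fold rise with no overlap (log2 difference 0.89, SE 0.06, edgeR adjusted p = 2.21e-10). Mars, for methionine, which also charges the initiator tRNA (ENSMUSG00000040354.14; chromosome 10, 127296221 to 127311786, minus strand), was at 102, 101 and 105 CPM against 175, 167 and 161 CPM. It rose 1.63-fold (edgeR adjusted p = 5.62e-10). Its exons share 68 bases with those of Ddit3 on the opposite strand, and Ddit3, a stress-induced transcription factor, fell 7.65-fold from 613 ± 17.1 to 80.1 ± 3.94 CPM. Kars, for lysine, rose 1.19-fold from 44.95 ± 1.62 to 53.7 ± 2.57 CPM (edgeR adjusted p = 0.00236).

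Gars, Qars, Farsb and Vars were not called. Gars, which charges glycine in both compartments, stood at 309, 312 and 304 CPM under the control label against 298, 303 and 312 CPM under the VprBP label, which overlapped. Qars, for glutamine, stood at 107 ± 2.35 and 103 ± 4.599 CPM. Vars, for valine, which in the cell binds the elongation factor eEF1, stood at 203 ± 10.8 and 218 ± 17.2 CPM. With scaling by library size only, Gars and Vars were called higher, at log2 differences of 0.10 and 0.22 (edgeR adjusted p = 0.0386 and 0.00218).

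**Figure D2:**
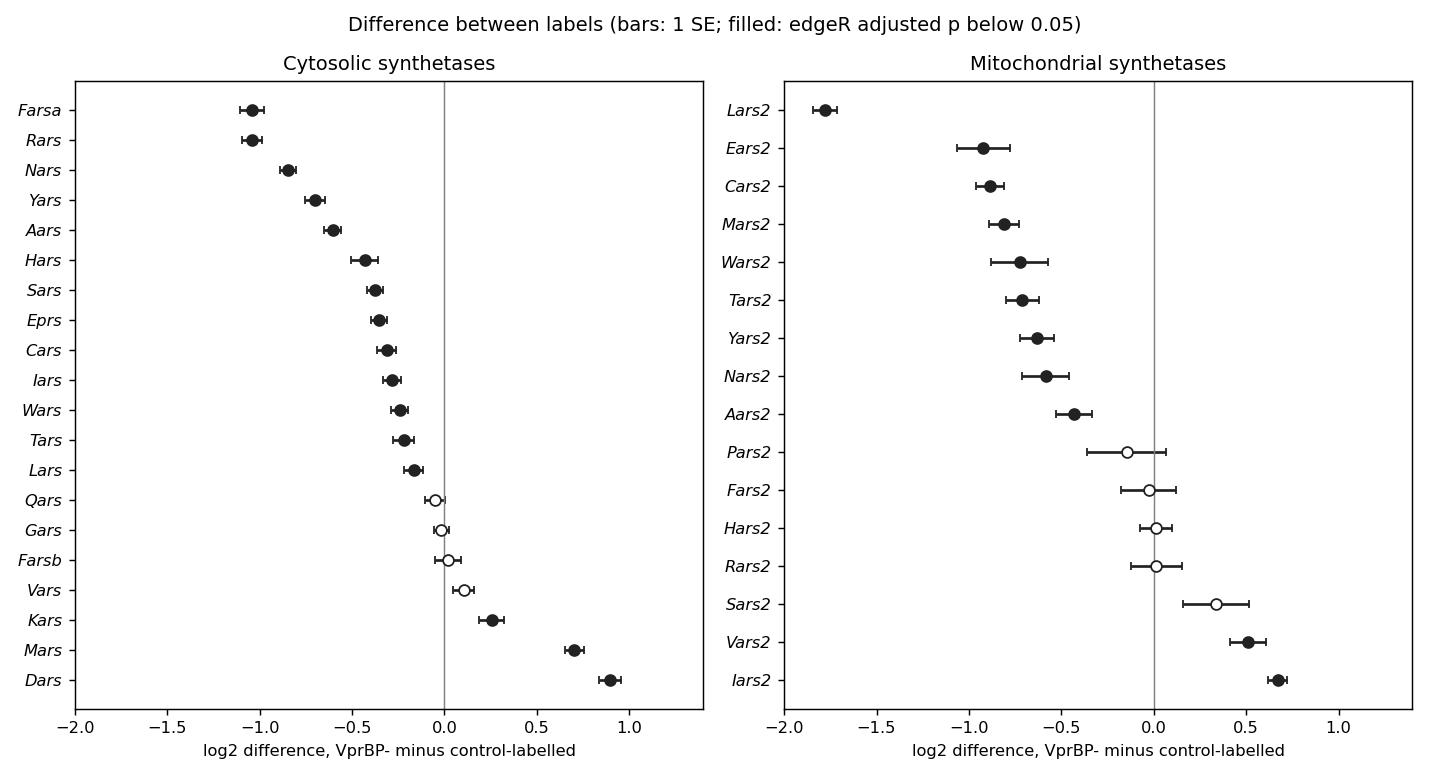
Log2 difference (VprBP-labelled minus control-labelled) of the 20 cytosolic and 16 of the 17 mitochondrial synthetase genes with a bar of 1 SE from the edgeR fit, cytosolic at left and mitochondrial at right. Filled points passed an adjusted p of 0.05. Lars2 stands at -1.78, below every other gene drawn.

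The members were then set out by complex and by class. Of the 8 enzymes of the multi-synthetase complex, 3 rose, 4 fell and 1 was not called, with a median log2 difference of -0.11. Of the 12 free cytosolic genes, none rose, 9 fell and 3 were not called, with a median of -0.34. Of all tested genes, 37.9% were called higher and 37.0% lower. With scaling by library size only, the free genes Gars and Vars were called higher, and Vars also without VprBP-labelled library 2. The free genes summed to 2603, 2598 and 2630 CPM under the control label against 2004, 1920 and 2013 CPM under the VprBP label. The complex genes summed to 1295, 1277 and 1252 CPM against 1143, 1170 and 1169 CPM. Neither sum overlapped between labels, and the difference between the groups of genes was not tested. All 3 scaffold genes fell. Eef1e1 was at 15.1, 16.4 and 15.1 CPM against 8.57, 8.21 and 7.14 CPM, a 1.95-fold fall (edgeR adjusted p = 2.64e-06). Aimp2 fell 1.61-fold from 23.7 ± 1.76 to 14.7 ± 1.05 CPM and Aimp1 1.35-fold from 76.5 ± 1.87 to 56.7 ± 2.38 CPM. By class, 1 of 9 cytosolic class I genes rose and 6 fell, and 2 of 10 class II genes rose and 6 fell, with Eprs holding a domain of each class.

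Promoter windows were searched for the C/EBP-ATF composite element, to which Atf4 binds as a dimer with a C/EBP protein. RefSeq windows on GRCm38.p6, from 250 bases before the start site to the first 50 transcribed bases, were at hand for 26 of the 37 genes. Among those not matched were Cars, Hars, Hars2, Lars, Mars, Nars, Pars2, Rars, Vars and Wars. The motif was TGATGNAA on either strand, read on the gene's own strand as TGATGNAA or TTNCATCA. Of the 12 cytosolic genes with a window, 5 (41.7%) held it, and of the 14 mitochondrial genes with a window none did. It was present for 2.71% of the 10446 tested genes with a window and in 3.97% of all 32851 windows of this length. In the fixed list of amino acid response genes described further below, 6 of 25 genes with a window held it, namely Asns, Chac1, Pycr1, Slc7a11, Trib3 and Vldlr.

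A match for each of the 5 genes is shown because the matches are a feature of the cytosolic promoters that did not enter the choice of genes. Each is given on the gene's own strand, 5′ to 3′, with the 8 bases of the motif in capitals. The Aars window shown is chr8:111033840-111033869, that of Gars chr6:55037960-55037989 and that of Iars chr13:49682126-49682155, all on the plus strand. Those of Tars and Yars are chr15:11399655-11399684 on the minus strand and chr4:129189895-129189924 on the plus strand.
Aars: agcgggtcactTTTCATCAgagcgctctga
Gars: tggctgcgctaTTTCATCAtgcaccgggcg
Iars: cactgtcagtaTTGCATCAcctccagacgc
Tars: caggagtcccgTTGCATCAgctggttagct
Yars: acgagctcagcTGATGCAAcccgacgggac

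Aars, Iars, Tars and Yars were 4 of the cytosolic genes that fell, by 0.61, 0.28, 0.22 and 0.70 on the log2 scale, and Gars was not called. The 7 cytosolic genes with a window but no match, Dars, Eprs, Farsa, Farsb, Kars, Qars and Sars, ran from -1.04 for Farsa to 0.89 for Dars. The ranges of genes with and without a match overlapped. A match describes letters in these windows and is not a measurement of binding.

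Mitochondrial genes were mostly lower too, with a median size of the log2 difference of 0.63, beside 0.33 for the cytosolic genes and 0.69 for all tested genes. Of 17, 9 fell, 3 rose and 5 were not called, where 37.0% of all tested genes were called lower and 37.9% higher. The median log2 difference of the 17 was -0.43. Their summed level was 851, 836 and 920 CPM under the control label against 576, 559 and 537 CPM under the VprBP label. A single gene, Lars2, held 48.1% ± 1.32 of this sum, which is not scaled to gene length, in the control-labelled libraries and 21.9% ± 1.27 in the VprBP-labelled ones (SD, n = 3 each). Without Lars2 the sums were 442, 445 and 466 CPM against 442, 440 and 424 CPM, with means of 451 ± 12.7 and 435 ± 9.65 CPM. The 16 other genes thus differed in sum by 1.04-fold, while 8 of them fell and 3 rose. This near-equal sum includes the rise of Iars2 from 90.4 ± 1.67 to 144 ± 6.33 CPM, so it does not show that the other genes were unchanged.

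**Figure D3:**
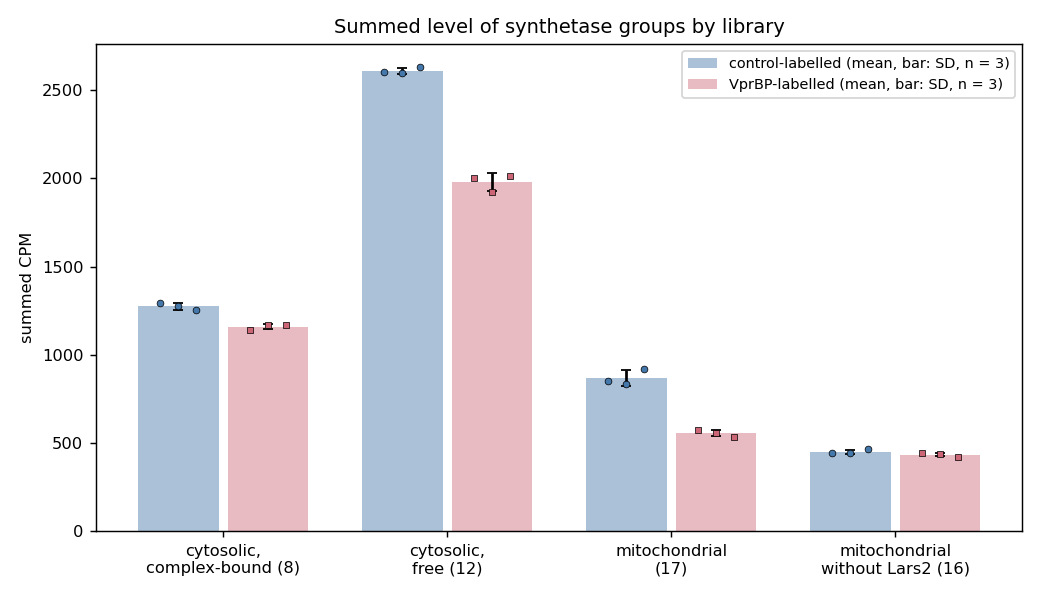
Summed CPM of 4 groups of synthetase genes in each library, with the mean as a bar from 0 and its SD (n = 3). The mitochondrial mean was 869 CPM under the control label against 557 CPM under the VprBP label with Lars2, and 451 and 435 CPM without it. The sum without Lars2 includes Iars2, which rose from 90.4 to 144 CPM.

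Lars2, the mitochondrial leucine enzyme (ENSMUSG00000035202.8; chromosome 9, 123366927 to 123462666, plus strand), had the largest difference of the family. It was at 408, 391 and 455 CPM under the control label against 134, 119 and 113 CPM under the VprBP label. That is a 3.43-fold fall with no overlap (log2 difference -1.78, SE 0.06, edgeR adjusted p = 3.00e-14), and 85.0% of tested genes differed by less. Per kilobase of exon it stood at 37.7 ± 2.97 CPM in the control-labelled libraries, above the other 16 mitochondrial members, and at 11.004 ± 0.997 CPM in the VprBP-labelled ones. Transcripts of the mitochondrial genome, which also moved with the labels, were compared with the annotated Lars2 transcripts. No stretch of at least 100 bases matched at 90% identity or more. Shorter stretches were not counted, and whether reads were misassigned was not tested. Of 15 tested genes on the mitochondrial genome, 13 were called lower, where 37.0% of all tested genes were. Among the 13 were mt-Nd3 (7.47-fold), mt-Cytb (4.56-fold) and mt-Nd4 (3.37-fold). The 2 ribosomal RNAs mt-Rnr1 and mt-Rnr2 were not called, mt-Rnr2 standing at 564 ± 28.1 and 523 ± 56.8 CPM. Whether the fall of Lars2 and those of the mitochondrial-genome transcripts are related was not tested.

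The other 8 mitochondrial genes that fell lay between 1.90-fold and 1.35-fold. Ears2, for glutamate (chromosome 7, 122037213 to 122067263, minus strand), was at 13.7, 12.8 and 13.3 CPM against 7.82, 6.05 and 7.14 CPM, a log2 difference of -0.92 (SE 0.14, edgeR adjusted p = 1.28e-05). Its exons share 89 bases, 1.73% of its exon length, with Ubfd1 on the opposite strand, which fell 2.64-fold from 92.9 ± 2.33 to 35.1 ± 3.58 CPM. Whether reads of the shared part were misassigned was not tested. In mitochondria the Ears2 enzyme also loads glutamate on the glutamine tRNA, and the amidotransferase of Qrsl1, Gatb and Gatc then converts it. None of these 3 genes was called, with Qrsl1 at 7.78 ± 1.33 and 9.51 ± 0.686 CPM and Gatb at 7.96 ± 0.492 and 9.03 ± 0.682 CPM. Cars2, for cysteine, fell 1.84-fold from 55.2 ± 3.05 to 29.9 ± 1.99 CPM, and Mars2, for methionine, 1.75-fold from 48.3 ± 3.48 to 27.6 ± 1.88 CPM. Mtfmt, which formylates the methionyl-tRNA that starts mitochondrial translation, fell 1.33-fold. Wars2, for tryptophan, fell 1.65-fold, Tars2, for threonine, 1.64-fold, Yars2, for tyrosine, 1.55-fold and Aars2, for alanine, 1.35-fold. Nars2, for asparagine, fell from 15.4 ± 1.46 to 10.3 ± 1.09 CPM.

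Iars2 and Vars2 were among the 3 that rose. Iars2, for isoleucine (chromosome 1, 185284726 to 185329396, minus strand), was at 88.6, 90.6 and 91.9 CPM against 139, 151 and 142 CPM, a 1.59-fold rise (edgeR adjusted p = 1.47e-09). Its exons share 2034 bases, 22.9% of its exon length, with Rab3gap2 on the opposite strand. Rab3gap2, a regulator of Rab GTPases, fell 1.87-fold from 103 ± 3.65 to 54.9 ± 7.01 CPM, and without a stated strand setting the reads of the shared part cannot be told apart. Vars2, for valine, was at 33.4, 40.0 and 45.3 CPM against 63.2, 53.8 and 51.5 CPM, a 1.43-fold rise with no overlap.

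Hars2, Rars2, Fars2, Pars2 and Sars2 were not called, with log2 differences from -0.15 for Pars2 to 0.34 for Sars2. They include members with few counts, and the SE reached 0.21 for Pars2, whose lowest library had 77 counts. Sars2, for serine, stood at 7.51, 5.08 and 6.57 CPM against 9.17, 7.18 and 7.98 CPM, and these overlapped. Its call changed with the processing, since scaling by library size only gave 0.45 (edgeR adjusted p = 0.0314) and leaving out control-labelled library 1 gave 0.47 (edgeR adjusted p = 0.041). Hars2, for histidine, which lies head to head with Hars and shares 195 exon bases with it, stood at 23.2 ± 0.612 and 23.4 ± 0.74 CPM, while Hars fell from 45.3 ± 1.28 to 33.6 ± 1.82 CPM.

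Cytosolic and mitochondrial enzymes for the same amino acid were then set against each other within each library, where library scaling cancels. There are 18 such pairs, with Farsa and Farsb each set against Fars2 and Eprs against both Ears2 and Pars2. In 6 pairs the ratio moved toward the cytosolic gene in the VprBP-labelled libraries with no overlap, in 6 it moved toward the mitochondrial gene, and in 6 the groups overlapped. The 12 of 18 pairs without overlap stand beside 77.2% of single tested genes without overlap. That share is for single genes, and none was computed for ratios of other gene pairs. The ratios of the pairs are given as a description. The largest shift was for leucine, where the log2 ratio of Lars to Lars2 CPM was -1.25, -1.23 and -1.50 in the control-labelled and 0.061, 0.35 and 0.45 in the VprBP-labelled libraries. Per kilobase of exon, Lars stood at 31.0 ± 1.04 and Lars2 at 37.7 ± 2.97 CPM under the control label, and at 27.7 ± 1.38 and 11.004 ± 0.997 CPM under the VprBP label. For methionine the log2 ratio of Mars to Mars2 was 0.97, 1.09 and 1.22 against 2.76, 2.61 and 2.44, since the cytosolic gene rose and the mitochondrial gene fell. Shifts toward the cytosolic gene were smaller for glutamate (0.57), cysteine (0.57), threonine (0.49) and tryptophan (0.48). On the other side, arginine moved by -1.03, phenylalanine by -1.01 with Farsa, serine by -0.73, histidine by -0.45 and valine by -0.41. For isoleucine the log2 ratio of Iars to Iars2 was 1.15, 1.19 and 1.13 against 0.28, 0.084 and 0.24. Alanine, asparagine and tyrosine, for which both genes fell, were among those that overlapped.

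**Figure D4:**
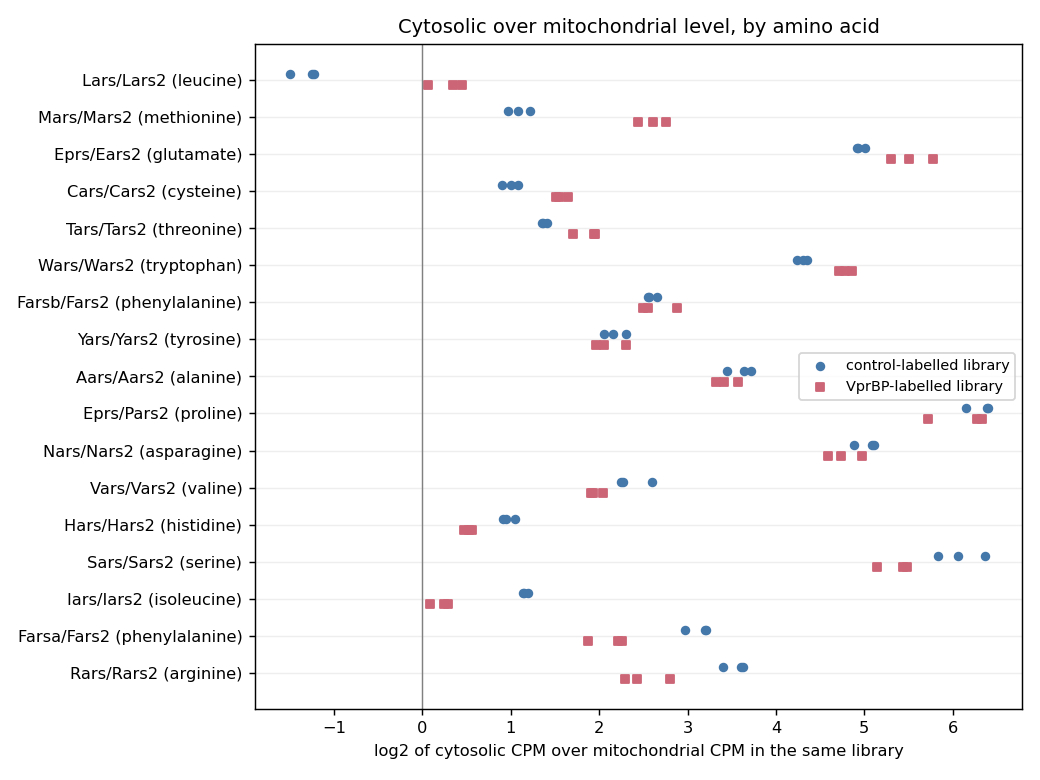
Log2 ratio of the cytosolic to the mitochondrial gene's CPM in each library for 17 of the 18 pairs, with circles for control-labelled and squares for VprBP-labelled libraries. The leucine pair moved from -1.33 to 0.29 and the methionine pair from 1.09 to 2.60 in the group means, and the arginine pair moved from 3.54 to 2.51.

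Levels were compared between genes per kilobase of exon, counting the exons of all annotated transcripts of a gene together. That length can exceed a single transcript, as for Aars with 9282 bases against 5750 in an annotated transcript. The order of genes thus depends in part on the annotation. Cytosolic members ran from 10.1 to 115 CPM per kilobase in the control-labelled libraries with a median of 26.8, and mitochondrial members from 1.62 to 37.7 with a median of 5.43. Nars (115 ± 3.10), Gars (98.8 ± 1.31) and Sars (83.3 ± 1.78) led the control-labelled order. In the VprBP-labelled libraries Gars came first at 97.7 ± 2.32 CPM per kilobase. Sars at 64.2 ± 2.75 and Nars at 63.8 ± 2.85 followed, and did not differ beyond their spread. Among mitochondrial members, Iars2 led the VprBP-labelled order at 16.2 ± 0.712, ahead of Lars2 at 11.004 ± 0.997 and Vars2 at 10.3 ± 1.14, and the latter pair did not differ beyond their spread.

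Proteins that act beside the synthetases moved in both directions, where 37.9% of all tested genes were called higher and 37.0% lower. Of 7 tested genes for proofreading, synthetase-like paralogs and selenocysteine charging, 3 rose, 2 fell and 2 were not called (median log2 difference 0.030). Tarsl2, a second cytosolic threonyl-tRNA synthetase outside the naming rule used here, rose 3.11-fold, from 3.78, 2.79 and 3.34 CPM to 9.44, 11.3 and 10.3 CPM. Aarsd1, which clears mischarged alanine tRNA, rose 1.61-fold, and Prorsd1 fell 2.46-fold. Of 11 tested genes of tRNA end maturation and export, none rose, 7 fell and 4 were not called (median -0.47). Rpp38, a subunit of the ribonuclease that trims the 5′ end of tRNA, fell 4.82-fold from 13.9 ± 0.533 to 2.89 ± 1.05 CPM. Trnt1, which adds the CCA end to which the amino acid is joined, fell 1.87-fold, and Elac2, which cuts the 3′ end, 1.51-fold.

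Among elongation factors, which take charged tRNA to the ribosome or move it along, Eef1a1 and Eef2 differed most between the labels. Of 6 tested cytosolic factors, 3 rose, 1 fell and 2 were not called (median 0.091), and their sum was 4969 to 5003 CPM under the control label against 10877 to 11130 CPM under the VprBP label. Most of this sum came from Eef2 and Eef1a1 under both labels. Eef2 rose 2.76-fold from 1649 ± 24.8 to 4553 ± 207 CPM. Eef1a1, whose pseudogenes make its count uncertain, rose 2.39-fold from 2243 ± 44.1 to 5361 ± 177 CPM, while Eif5a fell 1.28-fold. Of 10 mitochondrial translation factors, 5 rose, 3 fell and 2 were not called (median 0.31). Beside both lists, 37.9% of all tested genes were called higher and 37.0% lower. Tufm, which delivers charged tRNA to the mitochondrial ribosome, rose 1.72-fold and Guf1 2.22-fold, and Mtif3, an initiation factor, fell 1.91-fold.

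Among 26 listed genes of the amino acid response, 16 fell, 8 rose and 2 were not called (median -0.39). Of all tested genes, 37.0% were called lower and 37.9% higher. The list also counts the kinases Eif2ak1, Eif2ak2 and Eif2ak3, which are not the sensor of uncharged tRNA. Atf4 was at 663, 669 and 670 CPM under the control label against 198, 194 and 202 CPM under the VprBP label, a 3.37-fold fall (edgeR adjusted p = 6.47e-17). Besides Ddit3, the phosphatase subunit Ppp1r15a fell 15.8-fold and the amino acid transporter chain Slc3a2 2.61-fold. Eif2ak4, the sensor of uncharged tRNA, fell 1.28-fold, from 47.5 ± 1.33 to 37.1 ± 2.27 CPM. Those that rose were the serine synthesis genes Phgdh and Psat1, the proline synthesis genes Pycr1 and Aldh18a1, the transporter Slc7a5, Vldlr, Ddit4 and the kinase Eif2ak2. Response genes had a median log2 difference of -0.39 and cytosolic synthetases one of -0.26. The largest falls on that scale were 3.98 (Ppp1r15a) and 1.04 (Farsa). The difference between these sets was not tested.

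Other limits concern how reads were assigned. Of the 37 members, 14 share exon bases with another annotated gene, and 11 of these with a gene that has counts in the table used here. More than 1000 shared bases were found for 2 members only, Iars2 with Rab3gap2 and Aars with Exosc6. Among annotated transcripts, 6 members matched another member at 90% identity or more over at least 100 bases. In 12 members, a stretch of at least 200 bases matched another gene at 95% identity or more. What these matches did to levels and pair ratios was not tested. The processed pseudogene Gm4849 matches Iars over 1656 bases at 96.0% identity and had 138 counts over the 6 libraries. Eprs and Yars transcripts hold stretches of at least 200 bases that match several unrelated genes at 95% identity or more, so a share of their reads may be uncertain.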

How the data were processed

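The authors deposited a table of expected counts, 1 value per gene and library, with no scaling. Partek and build mm10 are named per the submitters' processing notes. No source used here names the aligner, counting tool, strand setting or annotation release. RNA was purified on Qiagen columns and made into SMARTER libraries, per the labels' protocols. Estimated counts were rounded. Total counts were 16839435 to 21838875 per library. Members had 77 to 10737 counts in a library, and the lowest total of any listed gene was 10.

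Members, lists and tests were chosen with earlier results of these data known. Named genes are the members, Dcaf1, up to 3 genes per list by smallest p (4 for the amino acid response) and genes needed to give a direction. Rab3gap2, Ubfd1, Gm4849, the mitochondrial-genome genes and the macrophage, pigment cell and stromal markers given with values were named after their values were seen. The fit used R 4.3.3 and edgeR 4.0.16 (quasi-likelihood F test, TMM, filterByExpr, group as the only term, 14641 genes), with Benjamini-Hochberg adjustment over all of them, and was tested on simulated data. CPM use TMM factors. All 37 IDs matched GENCODE M21, which gave coordinates and exon lengths. Transcripts were compared with BLAST+ 2.17.0. Alternatives used DESeq2 1.42.0, limma 3.58.1, other scalings and filters, a replicate block and leaving out each library. The values of 1 member and 1 promoter match are not reported here. Counts, medians and sums cover all 37 members.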

Additional observations from a re-analysis of the deposited data

How the results depend on the processing

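Of 391 values of called members under the alternatives, 389 kept their direction and call, and the 2 others are Lars and Tars with scaling by library size only. Cytosolic members called higher numbered 5 under library size only against 3. The 13 cytosolic and 9 mitochondrial members called lower stayed at 13 and 9 whichever library was left out, and those called higher ranged from 3 to 4 in each set. Requiring a log2 difference of at least 1 left 0 cytosolic members higher and 2 lower, 1 mitochondrial member higher and 1 lower, and 2843 and 2080 of all genes. Signs turned only for uncalled members. Under library size only, Gars was at 0.099, Qars at 0.066 and Fars2 at 0.088, and Dcaf1 at -0.12. Under upper quartile scaling, Farsb was at -0.0052, Hars2 at -0.011 and Rars2 at -0.0095, and limma voom gave -0.0071 for Rars2. Leaving out libraries gave -0.039 to 0.0072 for Gars, -0.030 to 0.091 for Farsb, -0.12 to 0.076 for Fars2, -0.016 to 0.040 for Hars2 and -0.13 to 0.17 for Rars2. Vars was called higher without VprBP-labelled library 2 (0.16, edgeR adjusted p = 0.0295). The summed cytosolic level was 3728 and 3265 CPM under library size only for the control and VprBP labels, and the control-labelled sum was 3866 with DESeq2 size factors and 3918 with upper quartile. The VprBP-labelled mitochondrial sum was 579.7 CPM under library size only. The labels number libraries 1 to 3 in both groups, but same-numbered libraries did not deviate together (correlations -0.0324, 0.00664 and -0.0422), so the numbers were not taken as pairs. With the replicate block, 3 cytosolic members were called higher and 13 lower, and 3 and 9 mitochondrial ones, and only the uncalled Rars2 changed sign (-0.0037). With a mean of at least 10 CPM, 4 members were left untested. Small counts limit members such as Pars2 (SE 0.21) and Sars2 (SE 0.18). With 3 libraries a group, no search for outlying libraries was made.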
